A study of Mus musculus with 18 samples.

Results

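Lactobacillus was followed in the stool bacteria of 18 peanut-sensitized mice, as every sequence feature that the authors' deposited taxonomy places in the family Lactobacillaceae. This gave 24 of the 419 features in the table, and all 24 carry the genus name Lactobacillus, so family and genus are the same set here. Together they held 4321 of 43267 counts, or 9.99%. The mice were N2-generation animals from a cross of C57BL/6 and C3H/HeJ, sampled after 6 weeks of sensitization to peanut. By the labels, 6 were susceptible and 12 resistant to oral anaphylaxis, the allergic reaction to swallowed allergen. All 18 were sensitized, the labels name no unsensitized group, and they give no age, sex, cage or litter. Each library is 1 mouse as labelled, so p-values rest on the spread between these mice. They treat the mice as independent, which could not be checked without cage and litter.

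Lactobacillus species are Gram-positive, rod-shaped bacteria that ferment sugars to lactic acid and tolerate the acid they make. In mice they colonize the forestomach and small intestine, and part of what reaches the stool is shed from there. L. murinus (placed by newer taxonomies in Ligilactobacillus), L. johnsonii, L. intestinalis and L. reuteri (Limosilactobacillus) are common in laboratory mice, and L. reuteri is known for forming biofilm on the forestomach lining. A bacterial genome usually carries several copies of the 16S rRNA gene whose sequences can differ slightly, so 1 strain can give several features. The table gives shares of counts, in which fewer Lactobacillus cells and more of other bacteria cannot be told apart.

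Each feature is called F- plus the opening of its deposited identifier, and mice are numbered within their group. Library totals ran from 673 to 3905 counts, with a median of 2534.5, and 2 resistant libraries held under 1500. One count is thus 0.0256% to 0.149% of a mouse's total. Group differences in library total were small against their spread (log2 difference 0.04; p = 0.903, exact permutation). The intervals and floors given reflect counting error alone: PCR reads that carry no molecular identifiers are not independent molecules.

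Lactobacillus was found in all 18 mice and its share spanned from 1.48% to 31.3% of counts. Among susceptible mice the lowest share was 1.48% in mouse 2 (95% Wilson interval 1.09% to 2.01%), the median 4.23% and the highest 20.4% in mouse 4 (18.5% to 22.5%). Among resistant mice the lowest was 1.52% in mouse 11 (1.14% to 2.02%), the median 9.61% and the highest 31.3% in mouse 1 (29.7% to 32.9%). The groups overlapped, with 1 resistant mouse above every susceptible mouse and 1 susceptible mouse below every resistant mouse. After susceptible mouse 4, the next susceptible share was 7.58%, and 7 of the 12 resistant mice lay above that. On the log2(percent + 0.01) scale the susceptible mean was 2.20 and the resistant mean 3.01, which is -0.82 apart (95% interval -2.13 to 0.51; p = 0.204 by two-sided exact permutation). The difference was -1.25 without susceptible mouse 4 (exact permutation p = 0.0561) and -0.49 without susceptible mouse 2 (exact permutation p = 0.448), so single susceptible mice moved it by more than 1.5 times in both directions.

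**Figure D1:**
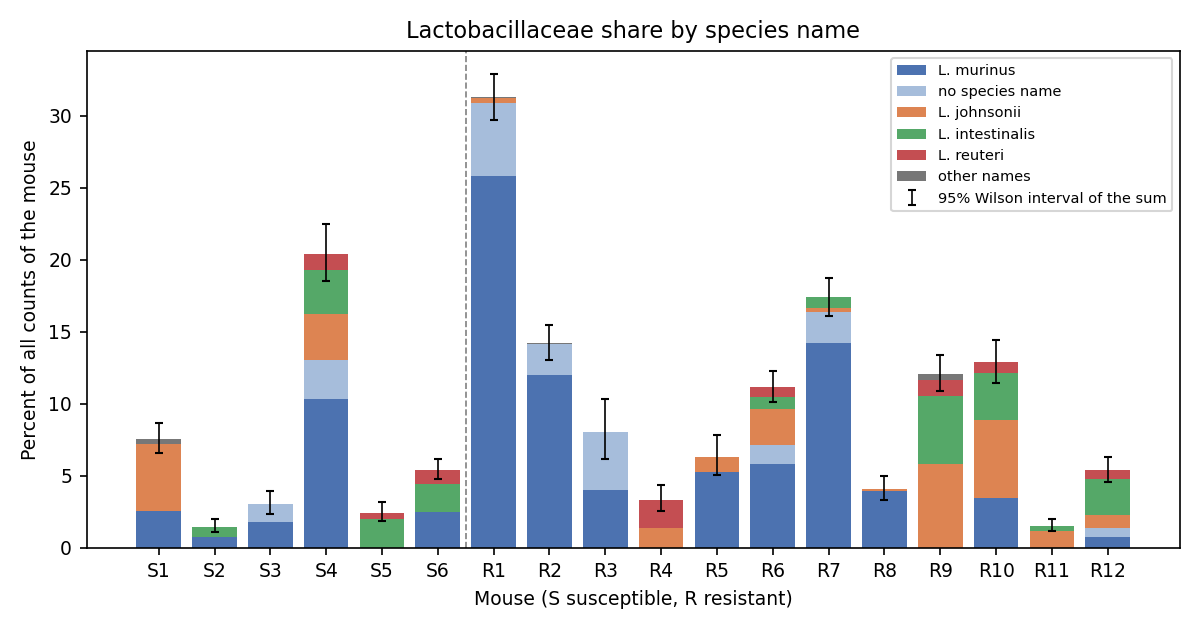
Share of Lactobacillaceae in each mouse, in percent of all counts of that mouse (vertical axis), stacked by the deposited species name, for 6 susceptible (S) and 12 resistant (R) mice. Error bars are 95% Wilson intervals of the summed share. The sum runs from 1.48% in S2 to 31.3% in R1, and the leading species name differs from mouse to mouse.

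A count test over all families gave the same direction and did not pass. With library totals as scaling, edgeR's quasi-likelihood test gave Lactobacillaceae a log2 fold change, susceptible over resistant, of -0.66 ± 0.71 (SE) with an adjusted p of 0.940. Alternatives gave it adjusted p-values between 0.450 and 0.993. Of 16 families, edgeR with this scaling called 0 at the 0.05 level after adjustment, a background of 0%, and 0 before it. With TMM it called 0 (3 before adjustment). DESeq2 also called 0 (0 before adjustment), as did limma run on centred log-ratios (1 before adjustment). The median over all families was 0.18 with library totals, 1.43 with TMM and -0.04 with DESeq2 size factors. Lactobacillaceae itself stood at -0.66, -0.12 and -1.06 under these scalings, so it did not move in step with the median. Relative to that median, Lactobacillaceae stood at -0.84, -1.55 and -1.02. Without susceptible mouse 4 its fold change was -1.42 and without resistant mouse 1 it was -0.38.

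The 4 named species below made up most of the genus, and the leading species differed between mice. L. murinus held 58.8% of Lactobacillaceae counts in 5 features, L. johnsonii 14.3% in 1 feature, L. intestinalis 11.6% in 1 feature and L. reuteri 4.14% in 6 features. Another 10.6% lay in 5 features with no species name. L. murinus led in 11 mice, 4 susceptible and 7 resistant, L. johnsonii in 4, L. intestinalis in 2 and L. reuteri in 1. The 7 include resistant mouse 3, where L. murinus tied at 27 counts with the features of no species name. A single feature held from 30.1% to 83.6% of a mouse's Lactobacillaceae counts, with a median of 47.1%.

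L. murinus was present in 5 of the 6 susceptible mice and in 9 of the 12 resistant ones. In susceptible mice its share was 0% in mouse 5, 2.11% at the median and 10.3% in mouse 4. In resistant mice it was 0% in mice 4, 9 and 11, 3.99% at the median and 25.8% in mouse 1. A count of 0 in these 4 mice allows a share of up to 0.0993% to 0.199%. L. johnsonii, a frequent small-intestinal species, had counts in 2 of the 6 susceptible mice and in 10 of the 12 resistant ones. Its median was 0% in susceptible and 0.951% in resistant mice, yet the highest values were close, at 4.68% in susceptible mouse 1 and 5.80% in resistant mouse 9.

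L. intestinalis was found in 4 of 6 susceptible mice, with a median share of 1.35% and a maximum of 3.01%. In resistant mice it was found in 6 of 12, with a median of 0.182% and a maximum of 4.72% in mouse 9. L. reuteri was found in 3 of 6 and 5 of 12 mice and stayed low, with maxima of 1.15% in susceptible mouse 4 and 1.92% in resistant mouse 4. In resistant mouse 4 it was nonetheless the leading species, with 58.0% of 50 Lactobacillaceae counts. Of the 8 mice with L. reuteri, 7 also had L. intestinalis.

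No species name passed the test between the groups. Species names were summed and tested over the whole table after the data were seen. Of 40 names, edgeR called 0, a background of 0% (1 before adjustment). DESeq2 called 0 (0 before adjustment), and limma run on centred log-ratios called 1 (2 before adjustment), which was not among the 4 Lactobacillus names. The log2 fold change was -1.08 ± 1.15 (SE) for L. murinus, -0.26 ± 1.78 for L. johnsonii and 0.31 ± 1.83 for L. intestinalis, each with an adjusted p of 0.954 (edgeR). For L. reuteri it was -0.03 ± 1.80, with an adjusted p of 0.987. The standard errors exceed the fold changes, so changes of several fold in either direction were not detectable here. The features with no species name, summed, stood at -0.93 ± 1.95. Scaling and tool moved these values by more than 1.5 times. L. johnsonii stood at -1.12 with DESeq2 size factors and -2.55 with limma, and L. murinus at -1.75 with TMM, -0.48 with limma and -0.29 with the title number as a covariate. L. intestinalis turned to -0.040 with DESeq2 size factors.

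Of the 24 features, 7 were dominant, defined as at least 5% of all Lactobacillaceae counts or presence in at least 9 mice, and they held 89.9% of the counts. F-c1dce2 lay just inside this threshold with 240 counts and F-64f20e just outside with 216. The most abundant feature, F-70150f of L. murinus, was found in 10 mice with 1233 counts. Its share was 0%, 0.883% and 7.62% at the lowest, median and highest of the susceptible mice, and 0%, 3.26% and 10.6% in resistant mice. F-ac0f47 was the only L. johnsonii feature and F-30245e the only L. intestinalis feature, so their shares are those given for the species.

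The other L. murinus features were less widespread. F-40f7ad was found in 8 mice, with highest shares of 2.69% in susceptible mouse 4 and 5.53% in resistant mouse 1. F-c1dce2 was found in 7 mice and peaked at 0.777% in susceptible mouse 2 and 2.10% in resistant mouse 1. F-8fbd5c, with 311 counts, was found in resistant mice 1, 2 and 7 and in 0 of 6 susceptible mice. F-8bbb51, the dominant feature with no species name, was found in 8 mice, with highest shares of 2.63% in susceptible mouse 4 and 4.77% in resistant mouse 1. The median shares of F-40f7ad and F-8bbb51 were 0% in susceptible and 0.377% and 0.283% in resistant mice. Those of F-c1dce2 and F-8fbd5c were 0% in both groups.

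The other 17 features held between 2 and 216 counts each. Of all 24 features, 12 were found in 1 mouse and together held 76 counts, or 1.76% of Lactobacillaceae counts. These 12 include both features named Lactobacillus_prophage (9 and 2 counts, resistant mouse 9), both named L. animalis (2 counts each) and both named gut_metagenome (5 and 3 counts, susceptible mouse 1). L. animalis is a close relative of L. murinus. No Lactobacillus feature was found in all mice, and the most widespread, F-ac0f47, was found in 12.

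**Figure D2:**
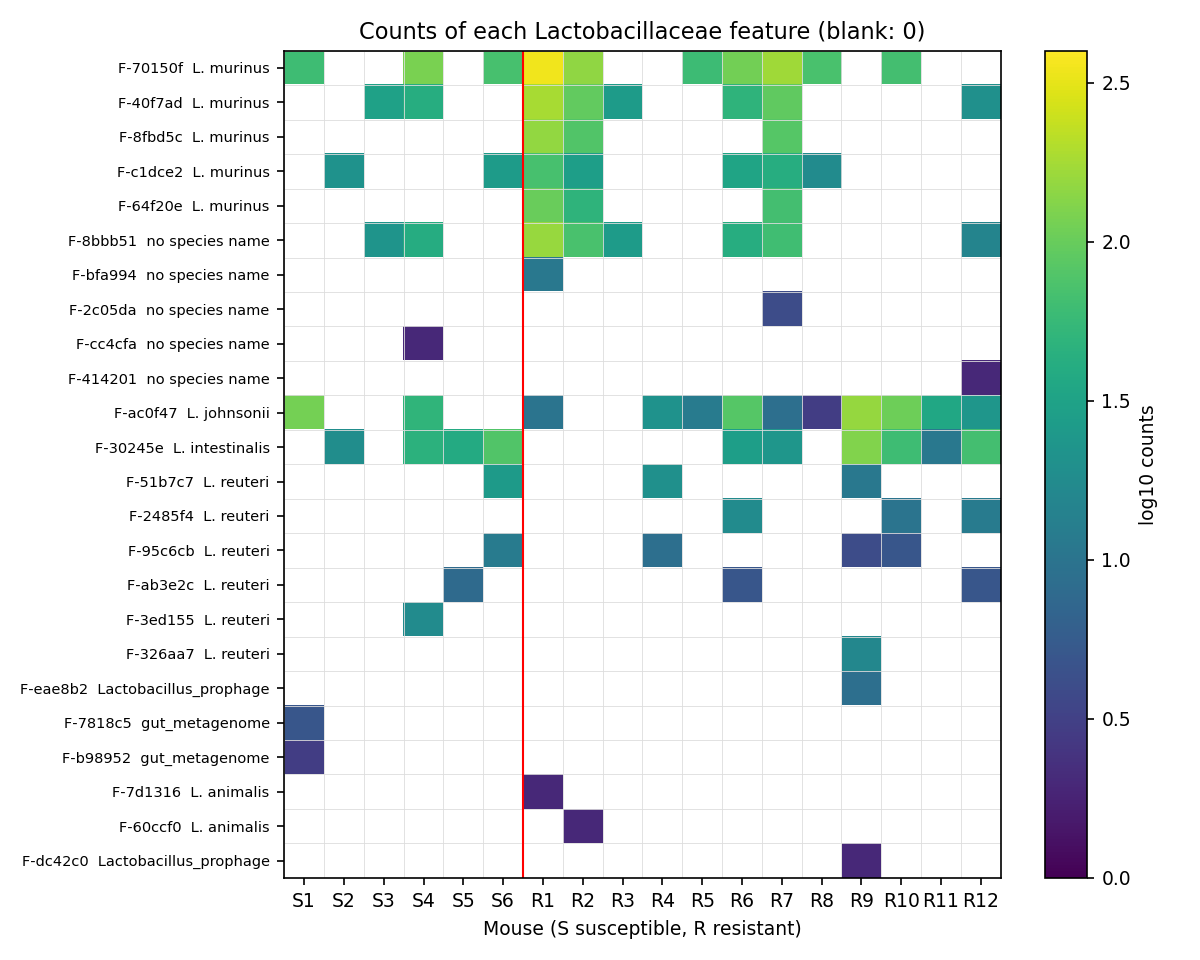
Counts of the 24 Lactobacillaceae features (rows, grouped by deposited species name) in 6 susceptible (S) and 12 resistant (R) mice (columns). Colour is log10 counts and blank cells are counts of 0. The L. murinus rows and F-8bbb51 fill together in R1, R2 and R7, and 12 features appear in 1 mouse.

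Single features did not differ between the groups beyond their spread. Only 7 of the 24 features had 10 or more counts in total and were found in at least 4 mice, so the other 17 were not tested. EdgeR called 0 of the 7, and 0 before adjustment, with an adjusted p of 0.971 for each, against a background of 0% of 83 features. Their median log2 fold change was -0.61, against -0.32 over all 83 features. Values ran from -1.04 ± 2.00 (SE) for F-c1dce2 to 0.31 ± 1.81 for F-30245e. F-30245e was the 1 feature above 0, and it took -0.13 without susceptible mouse 4. Without the filter edgeR called 3 of the 24 Lactobacillus features, against 12.9% of all 419 features. They were F-8fbd5c in 3 resistant mice, F-3ed155 in susceptible mouse 4 only (18 counts) and F-7818c5 in susceptible mouse 1 only (5 counts).

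Presence also did not separate the groups. Two-sided Fisher's exact tests were run for features found in 4 to 14 mice, and 0 of 7 Lactobacillus features passed, also before adjustment, against a background of 0% of 84 features. The lowest p belonged to F-ac0f47 of L. johnsonii, present in 2 susceptible and 10 resistant mice (p = 0.107 by Fisher's exact test, 1 after adjustment over the 84 features).

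The makeup within Lactobacillus, which does not depend on the other families, was compared as percent of Lactobacillaceae counts. F-30245e of L. intestinalis made up 30.3 ± 32.2% of them in susceptible mice (SD, n = 6) and 12.2 ± 16.9% in resistant mice (SD, n = 12), 18.2 percentage points apart (p = 0.125, two-sided exact permutation). F-ac0f47 of L. johnsonii averaged 12.9 ± 24.7% (SD, n = 6) and 22.4 ± 24.6% (SD, n = 12) (exact permutation p = 0.446). F-70150f of L. murinus averaged 17.3 ± 19.0% (SD, n = 6) and 26.2 ± 29.3% (SD, n = 12) (exact permutation p = 0.569). Of the 7 dominant features, 0 had an unadjusted exact permutation p under 0.05. The difference for F-30245e ran from 7.63 to 24.2 percentage points when single mice were left out, with its lowest value without susceptible mouse 5, where the feature held 83.0% of the Lactobacillaceae counts. Among mice with 50 or more Lactobacillaceae counts the difference was 1.77 percentage points (exact permutation p = 0.853). This limit leaves out susceptible mice 2 and 5 and resistant mouse 11, where F-30245e held 47.5%, 83.0% and 23.9%. It thus removes a larger part of the susceptible group than of the resistant group.

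Mice carried from 2 to 9 Lactobacillus features each, with a median of 4.5. The effective number of features, which is the exponential of the Shannon index and counts evenly shared features, was 2.87 ± 1.48 on average in susceptible mice (SD, n = 6) and 3.79 ± 1.87 in resistant mice (SD, n = 12). Susceptible mice were lower by a mean difference of -0.92 (95% interval -2.78 to 0.97; p = 0.308 by exact permutation), or -1.40 without susceptible mouse 4. The 6 mice with 2 features had 40 to 73 Lactobacillaceae counts, and the 7 mice with 7 to 9 features had 143 to 1042. Thinned to 40 Lactobacillaceae counts, those 7 mice still gave 4.99 to 7.53 expected features. Thinning was applied to features already called at each mouse's full depth, so the part of depth in the number of features was not tested.

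One pair of features kept a nearly fixed count ratio in every mouse that had them. F-40f7ad of L. murinus and F-8bbb51, which has no species name, were both found in the same 8 mice and both at 0 in the other 10. Their counts were 184 and 159 in resistant mouse 1, 94 and 71 in mouse 2, 27 and 27 in mouse 3, and 49 and 42 in mouse 6. They were 92 and 64 in resistant mouse 7, 20 and 15 in resistant mouse 12, 31 and 22 in susceptible mouse 3, and 42 and 41 in susceptible mouse 4. The ratio thus lay between 1 and 1.44, while the counts of F-40f7ad ran from 20 to 184. The geometric mean ratio was 1.22 and the SD of the log2 ratio 0.20. The chi-square per degree of freedom was 0.440, below the average that independent counting would give. The pair was picked for its small SD on these same counts, so this value describes it and tests nothing.

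This pair was the 1 stable pair among 14 Lactobacillus pairs that could be compared. A pair counted as stable when both features had 5 or more counts in at least 4 mice, the SD of the log2 ratio was at most 0.5, and no mouse had 10 or more counts of 1 feature and 0 of the other. Under the same rule 0.962% of 416 pairs within families of the whole table were stable, the other 3 lying in Lachnospiraceae and Muribaculaceae. The median SD was 1.14 over the Lactobacillus pairs and 0.95 over the pairs of other families. Pairs of different species varied widely: the ratio of F-70150f to F-ac0f47 of L. johnsonii ran from 0.549 to 35.4 over 7 mice.

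The 4 further features, F-70150f, F-c1dce2, F-8fbd5c and F-64f20e, all named L. murinus, kept steady ratios with this pair where both were present, but were at 0 in some mice that had the others. F-70150f exceeded F-40f7ad by 1.59 to 2.83 times in the 5 mice with both. In 5 other mice it was found at 61 to 71 counts while F-40f7ad was at 0. In 3 mice F-40f7ad was found at 20 to 31 counts without F-70150f. F-8fbd5c and F-64f20e were found in the same 3 resistant mice, with counts of 151 and 101, 78 and 49, and 82 and 66, a ratio of 1.24 to 1.59.

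**Figure D3:**
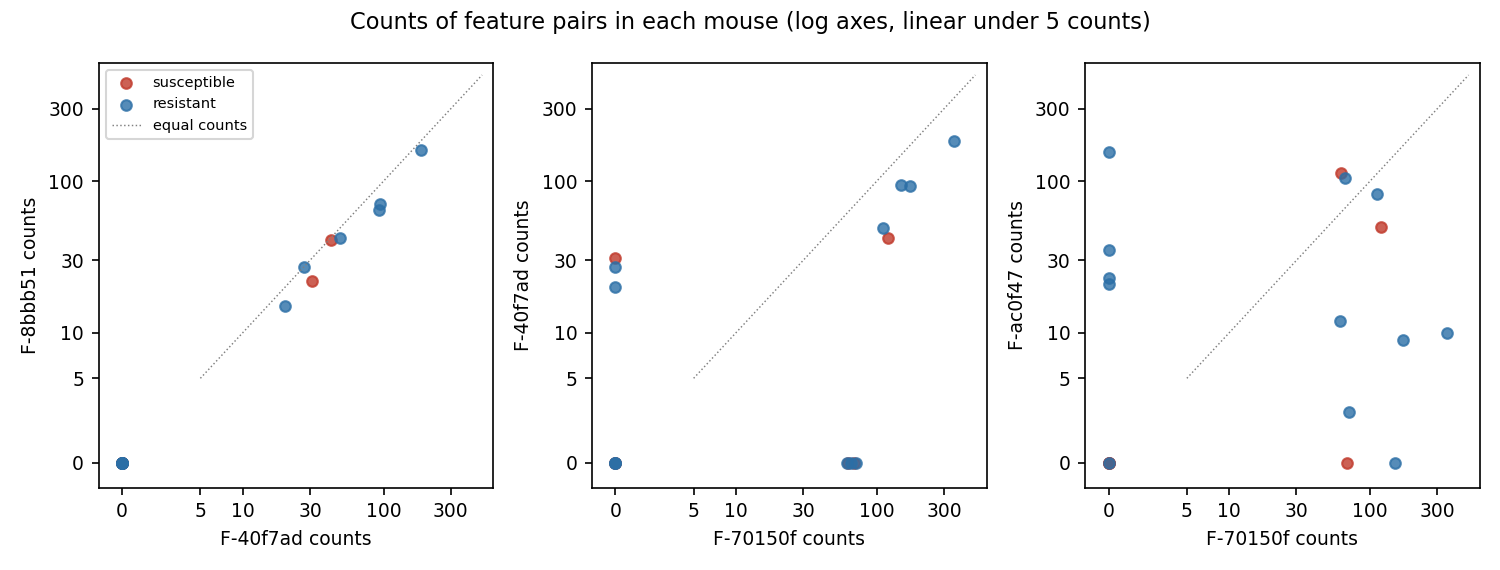
Counts of feature pairs in each mouse (log axes, linear under 5 counts), with susceptible mice in red, resistant mice in blue and a dotted line at equal counts. F-40f7ad and F-8bbb51 (left) lie along 1 line in 8 mice and at the origin in 10. F-70150f and F-40f7ad (middle) include mice with 1 of the features at 0, and F-70150f against F-ac0f47 of L. johnsonii (right) scatters.

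With mice that had 1 feature at 0 allowed, 6 of the 14 Lactobacillus pairs had an SD of at most 0.5, against a background of 15.6% of 416 pairs. With 3 mice also accepted as enough, both rules being added after the data were seen, 15 of 27 Lactobacillus pairs had an SD of at most 0.5. The background under that rule was 19.1% of 695 pairs. All 15 were the pairs among these 6 features, with SDs from 0.06 to 0.48, and 0 of the 12 other Lactobacillus pairs reached it, with SDs from 0.77 to 2.34. The 6 features were grouped after their ratios had been seen, so these counts describe them and test nothing. Together they held 2980 counts, 69.0% of Lactobacillaceae counts, in 14 mice. All 6 were found in the 3 mice with the most counts of the set, 470 to 1019, all of them resistant. The 4 mice with 1 of the 6 had 21 to 66 counts of the set, and the 5 mice with 2 had 35 to 96.

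The share of Lactobacillus was set against the other families found in at least 9 mice. Bacteroidaceae, with a mean share of 1.67%, was found in 8 mice and so was not compared. Of the 5 families compared, 0 passed at an adjusted p of 0.05, a background of 0%. Rikenellaceae, a family of anaerobic Bacteroidales, came closest, at r = 0.556 by Pearson (p = 0.0148 by permutation, 0.0742 adjusted) and a Spearman correlation of 0.484 (p = 0.0442 by permutation, 0.221 adjusted) over the 18 mice. Without the 2 mice farthest from the median Lactobacillus share, susceptible mouse 2 and resistant mouse 1, r was 0.314 (permutation p = 0.238), so the relation was not detectable in the other 16 mice, which span a narrower range of shares. Within the 12 resistant mice r was 0.443 and the Spearman correlation 0.392 (permutation p = 0.148 and 0.210), and within the 6 susceptible mice r was 0.605 and the Spearman correlation 0.714 (exact permutation p = 0.203 and 0.136). Susceptible mouse 2 had 0.259% Rikenellaceae beside 1.48% Lactobacillus, the lowest values of both families.

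Shares of 1 mouse sum to 100%, which by itself lowers correlations between abundant families. As percent of the counts outside Lactobacillaceae, Rikenellaceae stood at r = 0.611 (p = 0.00578 by permutation, 0.0289 adjusted) and a Spearman correlation of 0.529 (p = 0.0260, 0.130 adjusted). Lachnospiraceae, the most abundant family, gave r = -0.266 on that scale (p = 0.287 by permutation) and a Spearman correlation of -0.195 (p = 0.436). As percent of all counts it stood at r = -0.404 (p = 0.0964 by permutation, 0.241 adjusted) and a Spearman correlation of -0.325 (p = 0.189, 0.472 adjusted), and its Spearman correlation was 0.00103 on centred log-ratios. As percent of all counts, Muribaculaceae had a Spearman correlation of 0.0134 (permutation p = 0.961), Oscillospiraceae 0.0695 (permutation p = 0.786) and Ruminococcaceae -0.140 (permutation p = 0.577). Among 22 single features outside the family found in at least 9 mice, the 3 with the highest Spearman correlation were all Rikenellaceae_RC9_gut_group. F-65fad6 had a Spearman correlation of 0.437, F-911e40 0.408 and F-7427d7 0.393 over 18 mice, followed by Muribaculaceae F-f06ff2 at 0.137 and Lachnospiraceae_NK4A136_group F-5250d8 at 0.0657. The 3 Rikenellaceae_RC9_gut_group features are part of the Rikenellaceae share above. Where found together, their log2 count ratios had SDs of 0.17 to 0.25, though some mice had 1 feature without another. They are thus not 3 separate relations. All these correlations share the library totals and are given as a description.

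**Figure D4:**
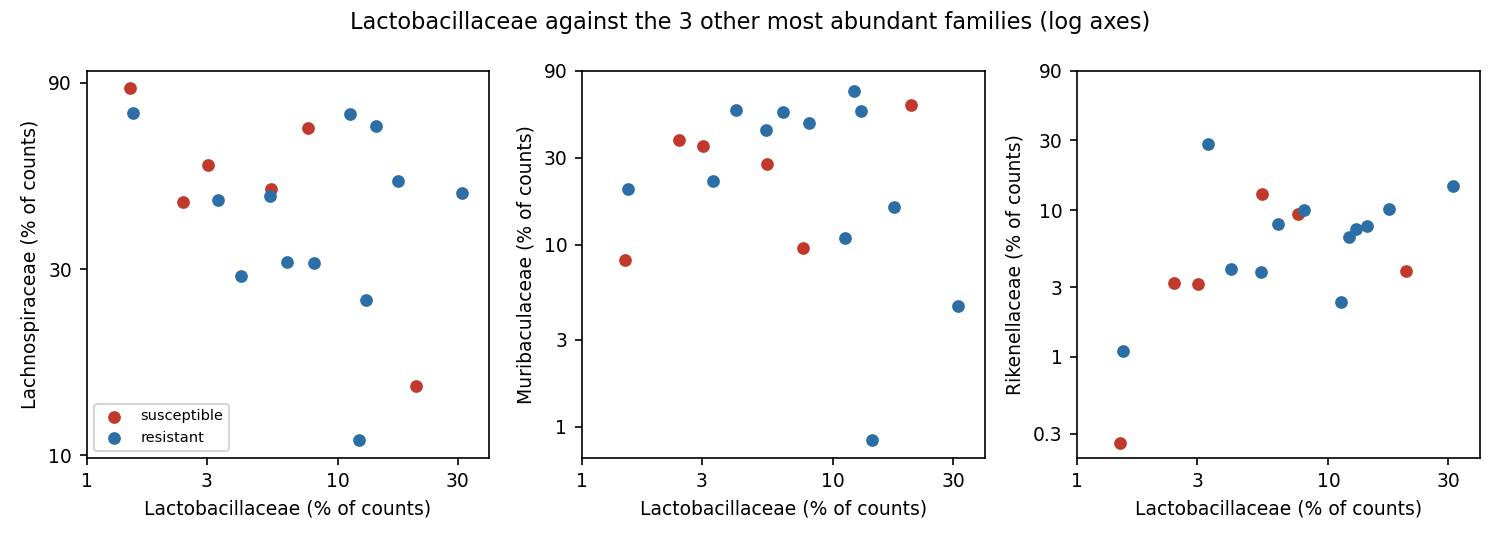
Share of Lactobacillaceae (horizontal, percent of counts, log axis) against the shares of Lachnospiraceae, Muribaculaceae and Rikenellaceae (vertical, percent of counts, log axes) in 6 susceptible (red) and 12 resistant (blue) mice. The lowest Rikenellaceae share, 0.259%, lies at the lowest Lactobacillaceae share, 1.48%.

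Other lactic acid bacteria were searched for by name. Of 6 families listed (Streptococcaceae, Enterococcaceae, Leuconostocaceae, Carnobacteriaceae, Aerococcaceae and Bifidobacteriaceae) 0 were found, and Lactobacillaceae held all counts of the order Lactobacillales. By counting error alone, a count of 0 over the whole table allows a pooled share of up to 0.00693%. Sequences lost in amplification or dropped in processing are not covered by this limit. Of 8 names of lactate-using taxa 2 were found, Desulfovibrio and its family Desulfovibrionaceae, as 1 feature with 13 counts in 2 susceptible mice. Of 3 further names searched for, Erysipelotrichaceae was found in 7 mice with 65 counts, and Candidatus_Arthromitus and Turicibacter were not found.

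The sample titles carry a number from 33 to 50 whose meaning the labels do not give. Its mean was 41.7 in susceptible and 41.4 in resistant mice. The summed Lactobacillus share was related to it at r = -0.305 by Pearson (p = 0.220 by permutation) and a Spearman correlation of -0.304 (p = 0.221). The Spearman correlation was -0.420 among the resistant mice (p = 0.179 by permutation) and 0.0286 among the susceptible ones (exact permutation p = 1). Leaving out the 2 mice with the most distant numbers gave r = -0.321.

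L. intestinalis was the 1 Lactobacillus species name whose share, with mice at 0 included, was related to this number after adjustment. It was found in 0 of the 5 mice with numbers from 33 to 37, where a count of 0 allows up to 0.0901% to 0.446%, and in 10 of the 13 mice numbered 38 to 50, at 0.364% to 4.72%. Number 38 was the lowest with L. intestinalis, so the 0 of 5 follows from where this split lies and tests nothing. Over all 40 species names in the table, Pearson gave r = 0.710 (p = 0.00174 by permutation, 0.0232 adjusted) and Spearman gave 0.692 (p = 0.00209, 0.0279 adjusted). Leaving out the 2 mice with the most distant numbers gave r = 0.657 and a Spearman correlation of 0.642. The Spearman correlation was 0.735 among the resistant mice (p = 0.00908 by permutation) and 0.667 among the susceptible ones (exact permutation p = 0.161). The Spearman correlation passed for 7.5% of the 40 names. In the larger table of 83 features, where 1.2% passed, the adjusted p of the same feature, F-30245e, was 0.0614 by Spearman and 0.0289 by Pearson. The relation was tested only after it had been seen in these same mice. Mice with a count of 0 share 1 value on this scale, so the correlations carry presence together with share. Where found, L. intestinalis stood at 0.703% at number 38, 4.72% at 45, 0.364% at 49 and 2.49% at 50. A relation among only the mice that had it was not tested.

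The other species names did not pass this test. L. murinus stood at a Spearman correlation of -0.485 (p = 0.0441 by permutation, 0.252 adjusted) over all mice and -0.627 within resistant mice (p = 0.0333, unadjusted), L. reuteri 0.397 (permutation p = 0.105, adjusted p = 0.347) and L. johnsonii 0.0904 (permutation p = 0.719, adjusted p = 0.833). Whether the relations of L. intestinalis and L. murinus differ from each other was not tested. Adjusted for this number, susceptible and resistant mice differed in the summed share by -0.80 on the log2 scale (permutation p = 0.192), close to the -0.82 without it.

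**Figure D5:**
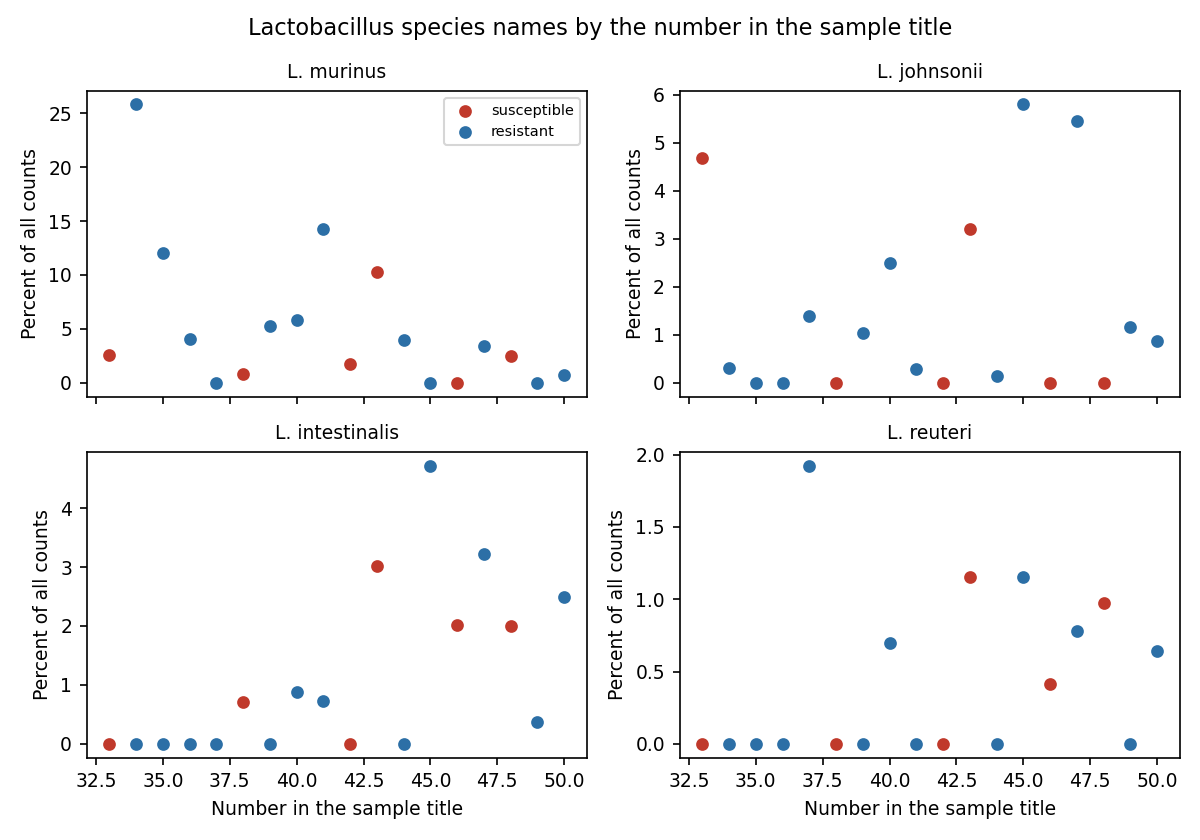
Share of the 4 named Lactobacillus species (vertical, percent of all counts) against the number in the sample title (horizontal) in 6 susceptible (red) and 12 resistant (blue) mice. L. intestinalis is at 0 in the 5 mice numbered 33 to 37 and found in 10 of the 13 others. The split lies at the lowest number with L. intestinalis, 38.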

How the data were processed

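Stool DNA of 18 mice was profiled by the 16S rRNA gene. Per the labels' protocols, DNA was extracted from pellets, the V1 to V3 region amplified and the pooled amplicons sequenced in pairs on a MiSeq. What the authors deposited are raw counts, whole numbers for each feature in each mouse, with no normalization. Denoising, classifier, database and filters are not given in the sources used here, and they decide which near-identical features are told apart and named. The members and lists were chosen with earlier results of these data known.

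Shares are percent of each mouse's total. Families, features and, added later, species names that totalled 10 or more counts and occurred in 4 or more mice went into edgeR 4.0.16 (limma 3.58.1, R 4.3.3), scaled by library totals, with Benjamini-Hochberg adjustment at 0.05. Single measures used exact permutation (two-sided, all 18564 splits), whose smallest p is 5.39e-05, with intervals from inverting the test. The SE given for edgeR is the absolute log2 fold change over the square root of the test's F value. Correlations used log2(percent + 0.01) and 100000 permutations. Scripts were tested on simulated data. All 81 library pairs within groups differed by chi-square (lowest 11 per degree of freedom). Alternatives were TMM, DESeq2 1.42.0, other filters, pseudocounts and minimums, and leaving out mice. Features with at least 5% of Lactobacillaceae counts or found in 9 mice are described singly. The planned wording also allows 10 counts in each of 4 mice, run as an added alternative. Families compared are the 5 others found in at least 9 mice, and outside features the 5 with the highest Spearman correlation. Python 3.11.15, numpy 2.4.6, scipy 1.17.1 and pandas 2.3.3 were used.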

Additional observations from a re-analysis of the deposited data

Results flagged for a closer look

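Susceptible mouse 4 stood apart from the other 5 susceptible mice in 3 of the 15 measures examined with Dixon's criterion, which compares the gap to the nearest value with the whole range. Its Lactobacillus share of 20.4% was followed by 7.58% in the next mouse (gap over range 0.678). Its L. murinus share of 10.3% and its share of F-70150f, an L. murinus feature, of 7.62% were both followed by 2.57% (0.751 and 0.663). The 3 measures are nested, so they are not separate flags. Chance flags about 1 in 20 groups if values are normally distributed. These 3 flags are on percents, not on the log2 scale of the group test. This mouse had 1561 counts, the smallest total among susceptible mice. The group of 12 resistant mice is outside the range of this criterion.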

How the results depend on the processing

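The Lactobacillus share, the family-level fold change and the effective number stayed lower in susceptible mice, without passing, under all alternatives run. With single mice left out, they ran from -0.49 to -1.25 (log2), -0.38 to -1.42 and -0.66 to -1.40, in that order. The family-level fold change was smallest with TMM, at -0.12 ± 0.56 (SE). The count of called features was 0 except without a filter on low counts (3), and 0 with any mouse left out. Over the whole table, leaving out the filter raised the calls from 0 to 54 features, 9 species names and 1 family. A call of 1 family, not Lactobacillaceae, also came with the title number as covariate and without resistant mouse 1. Leaving out resistant mouse 1 also gave 1 species name, and leaving out resistant mouse 7 gave 1 feature. Stable pairs numbered 1 under each planned limit, 6 with mice at 0 allowed and 15 with that and 3 mice enough. Requiring 10 counts in each of 4 mice left 6 Lactobacillus features tested and 0 called. Some log2 fold changes that had not passed changed sign. F-8bbb51 went from -0.93 to 0.094 with the title number as covariate, L. intestinalis from 0.31 to -0.040 with DESeq2 size factors and L. reuteri from -0.03 to 0.057 with limma. Among mice with 50 or more Lactobacillaceae counts, the difference in percent of Lactobacillaceae was 1.82 for F-ac0f47, 3.25 for F-8bbb51 and -1.27 for F-c1dce2, and F-40f7ad took -0.56 on the log2 scale. The Spearman correlation with Lachnospiraceae was 0.00103 and with Muribaculaceae -0.0588 on centred log-ratios, and with Muribaculaceae -0.0412 without the 2 libraries under 1500 counts. The causes were not tested. With single mice left out, log2 fold changes ran from -0.13 to 0.88 for F-30245e (-0.13 to 0.87 as L. intestinalis), -1.30 to 0.14 for F-ac0f47 and likewise L. johnsonii, and -0.63 to 0.49 for L. reuteri. Differences in percent of Lactobacillaceae ran from -8.32 to 4.54 for F-40f7ad, -6.91 to 3.27 for F-8bbb51 and -1.53 to 8.97 for F-c1dce2. No paired analysis was possible because the labels give the groups no shared replicate numbers.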

Other observations

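The lowest count above 0 of any Lactobacillus feature in any mouse was 2. In the whole table, 93 of 1110 values above 0 were counts of 1, and 0 of these were in Lactobacillus features. Mice had 4.78 Lactobacillus features above 0 on average, and whether 0 is fewer than in other features was not tested.

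L. johnsonii and L. murinus were found together in 9 mice, L. murinus alone of the pair in 5, L. johnsonii alone in 3 and neither in 1. L. murinus and L. reuteri were found together in 5 mice, with L. reuteri alone of the pair in 3.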
